A study of Rattus norvegicus with 36 samples.

Results

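The 10 genes described here, Fos, Fosb, Fosl1, Jun, Junb, Egr1, Egr2, Atf3, Nr4a1, and Ier3, are immediate early genes and members of the AP-1 group, followed in rat lung after instillation of crystalline silica. They were taken by gene name from the Agilent single-color arrays of the study, and all 10 of 10 names were present, on 13 probes and 43 spots per array, of 58717 spots other than controls. All 10 also passed the filter on dim probes described below, which left 23940 of 25597 gene names to test. RNA came from the accessory lobe of the lungs of female Sprague Dawley rats, 13 weeks old at instillation. Exposed rats had received DQ-12, a ground crystalline silica dust, at 10 mg/rat through the trachea, and control rats the saline vehicle by the same route. Each of the 6 groups, control and exposed at 1, 30, and 180 days after instillation (D1, D30, and D180), held 6 rats with 1 array each, 36 arrays in all. Rats of both arms were anaesthetized for the instillation and again before exsanguination at necropsy, and whole lobe RNA mixes all cell types of the lung.

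Immediate early genes are switched on within minutes of a stimulus without new protein synthesis, and their transcripts are short-lived. Growth factors, cytokines, stretch, and stress reach them through MAP kinases, which act on serum response factor and on the CREB and ATF proteins bound near their start sites. Fos, Fosb, Fosl1, Jun, and Junb encode subunits of AP-1, a dimeric factor in which a JUN protein pairs with a FOS, JUN, or ATF protein. Egr1 and Egr2 encode zinc finger factors, Atf3 encodes a stress-inducible partner of JUN proteins, Nr4a1 an orphan nuclear receptor, and Ier3 a modulator of survival signaling. In lung, they respond to particles, stretch, and inflammatory signals, in epithelial cells as well as in macrophages.

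Sequences upstream of the start sites were compared for a few short motifs. RefSeq sequences of the GRCr8 build were at hand for 6 of the 10 genes (Fosb, Fosl1, Junb, Egr1, Egr2, and Nr4a1). The 250 bases before the start were searched on both strands for the core of a cAMP response element (CRE core, TGACG), an AP-1 site (TGANTCA), a CArG box, which is the core of the serum response element, and a TATA box (TATAAA). None of these motifs overlapped another in the 6 sequences. Capitals mark the matches, and a CRE core on the reverse strand reads CGTCA. Fosl1, Junb, and Egr2 are printed because the exposure comparisons turn on them, and Nr4a1 because it held the most CRE cores of the 6.
Egr2, chr20:21054442-21054691, minus strand: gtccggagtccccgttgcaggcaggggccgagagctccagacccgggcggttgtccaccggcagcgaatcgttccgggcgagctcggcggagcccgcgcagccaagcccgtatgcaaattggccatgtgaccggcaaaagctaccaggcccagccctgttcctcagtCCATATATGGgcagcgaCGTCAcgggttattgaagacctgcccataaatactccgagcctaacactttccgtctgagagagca
Nr4a1, chr7:134259888-134260137, plus strand: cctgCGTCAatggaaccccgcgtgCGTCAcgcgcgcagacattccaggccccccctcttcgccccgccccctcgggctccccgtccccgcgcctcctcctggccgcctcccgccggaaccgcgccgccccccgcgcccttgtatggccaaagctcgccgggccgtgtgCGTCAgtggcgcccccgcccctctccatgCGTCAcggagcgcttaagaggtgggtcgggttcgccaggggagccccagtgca
Fosl1, chr1:212183635-212183884, plus strand: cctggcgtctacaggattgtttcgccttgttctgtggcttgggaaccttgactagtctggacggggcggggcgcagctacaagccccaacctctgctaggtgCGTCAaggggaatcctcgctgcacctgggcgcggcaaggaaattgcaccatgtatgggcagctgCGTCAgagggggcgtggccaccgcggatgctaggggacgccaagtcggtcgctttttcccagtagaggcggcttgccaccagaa
Junb, chr19:40080876-40081125, plus strand: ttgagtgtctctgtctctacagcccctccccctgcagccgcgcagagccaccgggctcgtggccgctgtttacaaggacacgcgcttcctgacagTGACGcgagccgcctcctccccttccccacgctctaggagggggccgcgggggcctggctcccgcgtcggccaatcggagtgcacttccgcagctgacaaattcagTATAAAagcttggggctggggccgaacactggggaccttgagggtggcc
Of the 6 genes, 5 held a CRE core, compared with 18.2% of all 33469 RefSeq upstream sequences of this length. In Nr4a1 there were 4, a number reached by 0.173% of the sequences. Egr2 held 1 CArG box, which began 83 bases before the start, with a CRE core at base 66, and Egr1 held 2 CArG boxes and 2 CRE cores, whereas 1.5% of all sequences held a CArG box. No AP-1 site lay in any of the 6, against 6.34% of all sequences. A TATA box was found in Junb, 49 bases before the start, and in Fosb, 180 bases before it, against 12.9% of all sequences. No motif was found in all 6 sequences. These matches describe letters in a window, and no binding was measured.

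All levels below are quantile-normalized log2 signals of the background-corrected spot intensity, and a log2 fold change is the exposed mean minus the control mean. A gene was called when the arms differed by a factor of 2 or more (fold change, FC) and the adjusted p was under 0.05, where p came from limma fitted to all 36 arrays and was adjusted over the 23940 genes by the Benjamini–Hochberg method. For single genes, an exact permutation p over the 12 arrays of a day is added, two-sided and unadjusted, and 0.00216 is the smallest it can give. With 6 arrays per group, it is the number of rats that limits the precision. The share of probes well above background ranged from 51.4 to 75.5% per array. The lung markers of type 1 and type 2 epithelium and of endothelium were each detected in every group. The arrays lay on 19 slides scanned on 11 dates, and at D1 the 6 exposed arrays shared a scan date with only 1 control array, while the 5 other control arrays were scanned on 2 other dates. Exposure and scan date can therefore hardly be told apart at D1.

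At D1, the group moved in both directions. Fosl1 and Junb rose, Egr1 fell, and Jun fell by less than the fold threshold, whereas Fos, Fosb, Egr2, Atf3, Nr4a1, and Ier3 did not pass the adjusted p. Thus 3 of 10 genes were called, beside 3.07% of all genes, and 4 passed the adjusted p alone, beside 16.2%. The median log2 fold change of the 10 genes was −0.30, against −0.01 over all genes. At D30, 0 of 10 were called (limma; 1 gene, Jun, had an unadjusted p under 0.05), beside 1.05% of all genes, and 0 passed the adjusted p, beside 3.98%. At D180, only Fosl1 was called, beside 3.63% of all genes, and Fosl1 and Egr2 passed the adjusted p, beside 16.8%. The median log2 fold changes were 0.10 at both later times, against −0.02 and −0.03 over all genes.

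**Figure D1:**
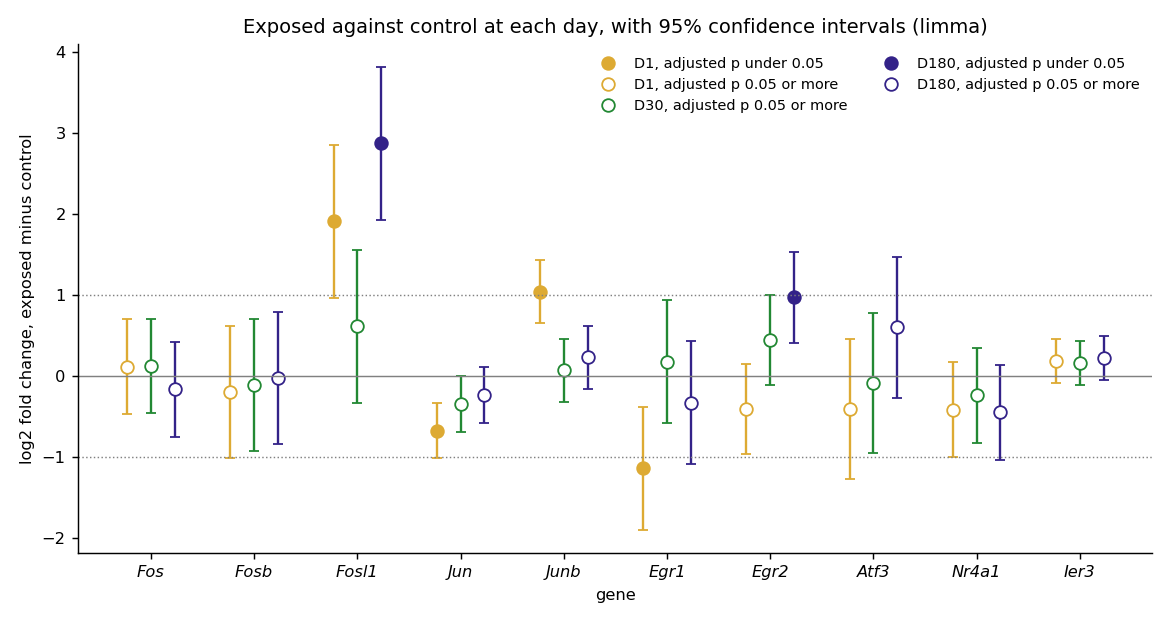
Log2 fold change, exposed minus control, of each gene (x axis) at D1, D30, and D180, with 95% confidence intervals from limma. Filled points passed the adjusted p of 0.05 and dotted lines mark a 2-fold change. Fosl1 at D180 lies highest at 2.87 and Egr1 at D1 lowest at −1.14.

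Among the FOS subunits, Fosl1, which encodes FRA-1 and in lung is known from epithelial repair and macrophage activation, rose at D1 and D180. Its probe lies at chr1:208099035-208099094 of rn4, the build named in the array file headers. In control rats its log2 signal was 2.02 to 3.06 at D1 (median 2.15) and 2.10 to 3.69 at D180 (median 2.24), and it was well above background on 0 of these 12 arrays. In exposed rats it was 2.64 to 5.98 at D1 (median 3.97) and 4.20 to 6.14 at D180 (median 5.45), well above background on 3 and 4 of 6 arrays. At D1, 5 of 6 exposed rats lay above all control rats, and at D180 all 6 did. Because the control level lay near background, the exposed mean was also set against the lowest signal well above background on the control arrays. It was 1.90 times this level at D1 and 3.49 times at D180. These are not strict lower bounds, since some exposed arrays were not well above background either and normexp gave smaller changes. The fitted log2 fold changes were 1.91 ± 0.46 (SE, limma adjusted p = 0.00395, exact p = 0.00433) at D1 and 2.87 ± 0.46 (adjusted p = 2.38e-05, exact p = 0.00216) at D180. With normexp background correction, which compresses dim signals, they were 0.39 and 0.69, both still past the adjusted p. At D30, the 2 arms overlapped, with 2.11 to 4.72 (median 2.85) in control and 2.62 to 4.55 (median 3.45) in exposed rats (log2 fold change 0.61, adjusted p = 0.596). Only 1 of 6 arrays of each arm was well above background there, so most of these values lay near background.

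Fos and Fosb, the founding partner of JUN and its closest relative, overlapped between the arms at every time. Fos was 6.996 to 8.34 (median 7.45) in control and 7.24 to 8.16 (median 7.65) in exposed rats at D1, and 7.29 to 8.93 (median 8.12) and 7.97 to 9.49 (median 8.08) at D30. At D180, it was 7.05 to 8.69 (median 8.04) and 7.51 to 8.34 (median 7.79). The 95% confidence intervals of its log2 fold changes, −0.47 to 0.70, −0.46 to 0.71, and −0.75 to 0.42, lay within a 2-fold change in either direction at each day. Fosb was measured less tightly, and its intervals reached from −1.01 to 0.62 at D1, −0.92 to 0.71 at D30, and −0.84 to 0.79 at D180. Its medians were 5.56 and 5.38, 6.17 and 5.79, and 6.38 and 6.10 in control and exposed rats at D1, D30, and D180, respectively.

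Of the JUN subunits, Junb, which in dimers often restrains JUN, separated the arms completely at D1. It was 6.89 to 7.34 (median 7.06) in control rats and 7.68 to 8.88 (median 8.05) in exposed rats, a 2.06-fold difference (adjusted p = 0.000199, exact p = 0.00216). This size sat at the fold threshold, and the log2 fold change was under 1 in 9 of 27 alternatives. It was 0.97 with 75th percentile scaling and with the deposited log2 values, 0.87 with the uncorrected median intensity, 0.81 with normexp, and 0.99 and 0.89 without exposed replicate 4 or 6, and just under 1 with array weights, each still past the adjusted p of limma. With scan date or slide as a fixed block it was 0.96 and 0.70 and did not pass (adjusted p = 0.166 and 0.228). Complete separation of the arms was seen in 11.2% of all genes at D1. It was not seen for any of the 10 genes at D30, where 2.36% of all genes showed it, and only for Fosl1 at D180, beside 7.26%. At D30 and D180, Junb overlapped between the arms, and the control rats were at 7.66 to 8.34 (median 7.81) and 7.39 to 8.49 (median 7.87). The exposed level at D1 thus lay near that of the control rats of the later days, and the D1 control rats lay below all of the later control rats. Age, time since instillation and its anaesthesia, slide, and scan date differ between the control groups and cannot be told apart. The exposed rats were at 7.51 to 8.26 (median 7.997) at D30 and 7.52 to 8.55 (median 8.24) at D180. The change of Junb differed between D30 and D1 by −0.97 (interaction in limma, adjusted p = 0.0470), where 2.18% of all genes passed. This difference lay at the threshold, and it did not pass with any of 22 of the 36 rats left out.

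Jun, the subunit that can also pair with itself, was lower in exposed rats at D1. Its signal was 13.28 to 13.99 (median 13.72) in control and 12.52 to 13.31 (median 13.12) in exposed rats, and 5 of 6 exposed rats lay below all control rats. The log2 fold change was −0.67 ± 0.17 (SE; adjusted p = 0.00537, exact p = 0.00433), an FC of 0.627. At D30 and D180, Jun was at −0.35 (adjusted p = 0.307) and −0.23 (adjusted p = 0.416), with 4 and 3 of 6 exposed rats below all control rats. The other Jun probe gave −0.43 at D1 (adjusted p = 0.280), −0.06 at D30, and −0.36 at D180, and its deviations from the group means correlated with those of the probe used at r = 0.41 over 36 rats.

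**Figure D2:**
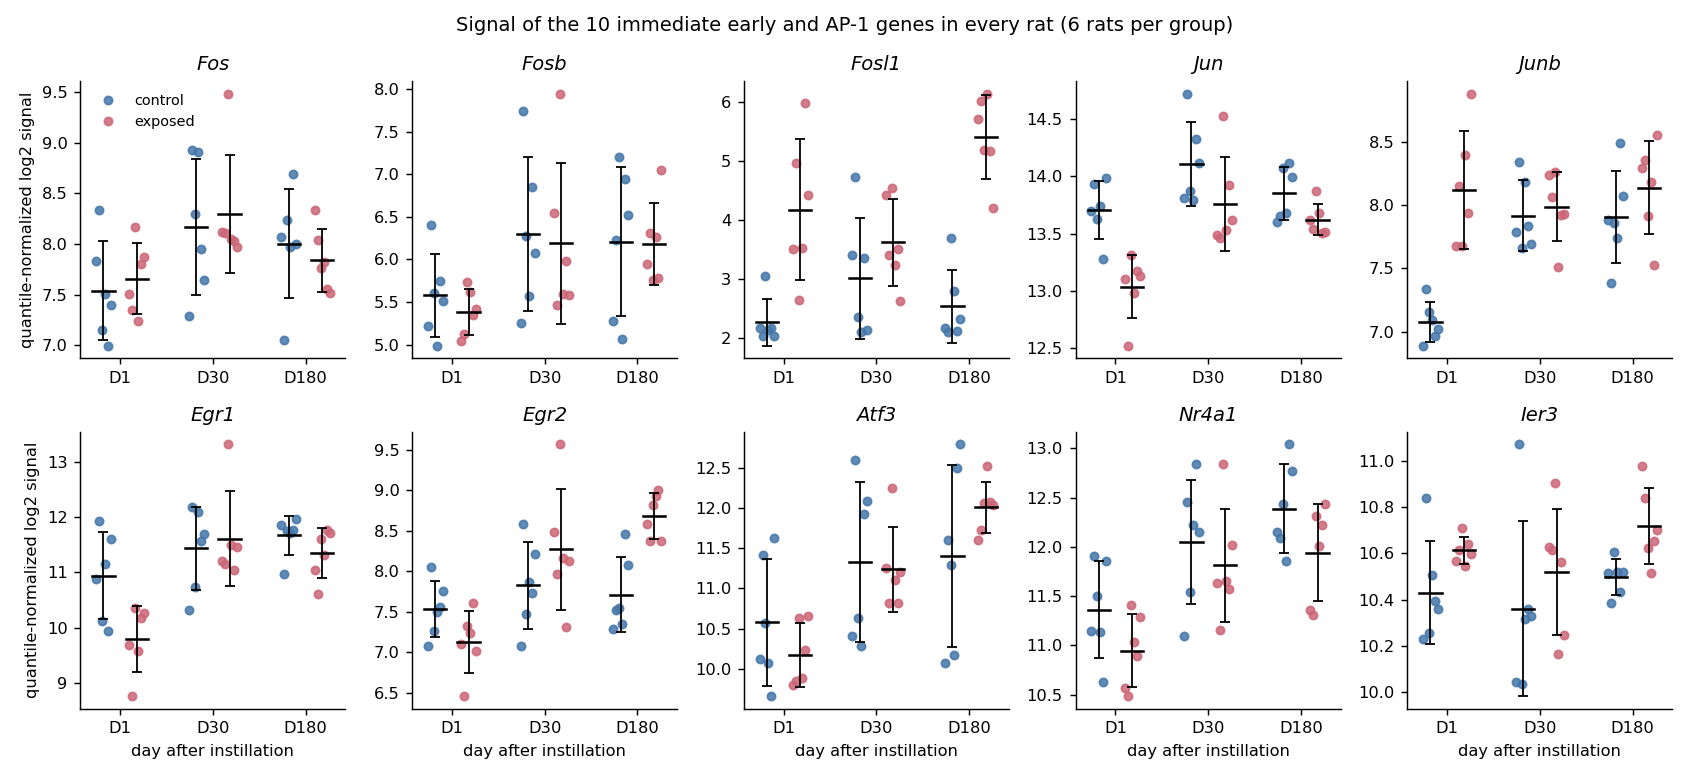
Quantile-normalized log2 signal of each gene in each of the 36 rats (y axis; scales differ between panels) by day after instillation, control in blue and exposed in red, with mean ± SD of 6 rats. Only Junb at D1 and Fosl1 at D180 show no overlap between the arms.

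Egr1, an early growth response factor that serum response factor drives, fell at D1. Its signal was 9.94 to 11.93 (median 11.02) in control and 8.76 to 10.35 (median 9.93) in exposed rats, and 3 of 6 exposed rats lay below all control rats. The log2 fold change was −1.14 ± 0.37 (SE; adjusted p = 0.0316, exact p = 0.0216). This call was weak: its adjusted p was 0.05 or more in 14 of 28 alternatives, 6 of them with a single rat left out (control replicate 2, 4, or 6, or exposed replicate 1, 2, or 4; 0.0521 to 0.107). The other Egr1 probe gave −0.38 (adjusted p = 0.592), with r = 0.76 between the probes. At D30 and D180, the arms overlapped, and the log2 fold changes were 0.18 and −0.33 (adjusted p = 0.917 and 0.634).

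Egr2, a relative of Egr1 with roles in myeloid cells and lymphocytes, was higher in exposed rats at D180. Its signal was 7.29 to 8.46 (median 7.54) in control and 8.37 to 9.01 (median 8.70) in exposed rats, and 4 of 6 exposed rats lay above all control rats. The difference was 1.96-fold, a log2 fold change of 0.97 ± 0.27 (SE; adjusted p = 0.0108, exact p = 0.00649), just short of the fold threshold. At D1, the median was 7.53 in control and 7.17 in exposed rats (log2 fold change −0.41, adjusted p = 0.342), and at D30, 7.80 and 8.14 (0.44, adjusted p = 0.468). The change at D180 differed from that at D1 by 1.38 (interaction, adjusted p = 0.0322), beside 4.55% of all genes. With any of 7 of the 36 rats left out, control D1 replicates 2 and 6, control D180 replicates 1 and 3, and exposed D1 replicate 2 and D180 replicates 4 and 5, no gene passed. Between D180 and D30, none of the 10 genes differed (0 in limma, with an unadjusted p under 0.05 for Fosl1 only), beside 0.246% of all genes. The Egr2 value rests on 1 of 2 probes. The probe used lies at chr20:21883940-21883999 of rn4 and the other at chr20:21884977-21885036, and the other gave 0.53 at D1, 0.11 at D30, and 0.14 at D180 (adjusted p = 0.825). The deviations of the 2 probes correlated at only r = 0.19 over 36 rats.

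Atf3, Nr4a1, and Ier3 did not pass the adjusted p at any time. Atf3, induced by many kinds of cell stress, was 10.07 to 12.79 (median 11.44) in control and 11.60 to 12.52 (median 12.05) in exposed rats at D180, with a log2 fold change of 0.60 whose interval ran from −0.26 to 1.47. Nr4a1, a receptor without a known ligand that limits inflammatory gene expression in macrophages, lay lower in exposed rats on average at all 3 times, by −0.42, −0.24, and −0.45 on the log2 scale (adjusted p = 0.363, 0.802, and 0.336). Its intervals were −1.001 to 0.17, −0.82 to 0.35, and −1.03 to 0.14. Ier3, which limits cell death under inflammatory signals, was the most narrowly bounded of the 3. At D180 it was 10.38 to 10.61 (median 10.52) in control and 10.51 to 10.98 (median 10.68) in exposed rats, and 5 of 6 exposed rats lay above all control rats. This difference of 0.22 had an exact p of 0.00866 and an adjusted p of 0.289.

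The scan date bears directly on the D1 calls. On the date shared by all 6 exposed arrays and control replicate 3, Junb was 7.16 in the control rat and 7.68 to 8.88 in the exposed rats, and Jun 13.62 and 12.52 to 13.31, so both kept their order. Egr1 was 10.12 in this control rat, inside the exposed range of 8.76 to 10.35, and Fosl1 was 3.06, inside the range of 2.64 to 5.98. With scan date as a fixed block, 0 of the 10 genes passed the adjusted p at D1, with log2 fold changes of 0.96 for Junb (adjusted p = 0.166), 1.12 for Fosl1 (0.699), −0.59 for Jun (0.494), and −0.32 for Egr1 (0.945). With scan date as a random block, Junb alone passed. At D180, 1 scan date held 3 control and 3 exposed arrays, and there Fosl1 differed by 2.76 and Egr2 by 1.19, close to their values over all arrays. A second date held 1 rat of each arm, which differed by 3.07 and 1.48. With slide as a fixed block, neither passed at D180 (Fosl1 2.92, adjusted p = 0.380, and Egr2 1.22, adjusted p = 0.612). Only 1 slide at D180 held both arms. Atf3, at 0.60 over all D180 arrays, differed by 1.29 on the date with 3 arrays of each arm and by 0.48 on the second date. With scan date as a fixed block it was at 1.09, which did not pass (limma adjusted p = 0.136).

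Markers of several cell types differed between the arms as well. For comparison, 3.07, 1.05, and 3.63% of all genes were called at D1, D30, and D180, and 16.2, 3.98, and 16.8% passed the adjusted p. Of 10 neutrophil markers, 2, 3, and 6 were called higher at D1, D30, and D180, while 1 passed the adjusted p in the lower direction at each day, and their mean log2 signal per rat was 7.23 to 7.996 in control and 8.08 to 8.85 in exposed rats at D1, and 6.98 to 8.22 and 8.62 to 9.74 at D180. Of 8 macrophage and monocyte markers, 0, 1, and 3 were called higher, with a mean of 10.05 to 10.30 against 10.39 to 10.61 at D1 and 10.02 to 10.34 against 10.79 to 11.06 at D180. Each marker of both lists was well above background on at least 1 array of every group. At D180, 6 of 6 type 1 epithelium markers (median log2 fold change −0.48) and 6 of 6 endothelium markers (−0.61) passed the adjusted p in the lower direction. So did 3 of 5 smooth muscle, 4 of 4 erythroid, 2 of 6 cardiac muscle, and 2 of 3 mesothelium markers tested, 1 erythroid marker past the fold threshold. In the higher direction, 4 of 8 type 2 epithelium markers (median 0.31) and 1 of 6 T cell markers passed. No airway, fibroblast, B cell, or skeletal muscle marker passed at D180. The part of these cells in the changes of Fosl1, Junb, Egr1, Jun, and Egr2 was not tested, and in whole lobe RNA more cells of a type and more RNA per cell cannot be told apart.

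Other genes of the pathway are given by list, beside the shares of all genes called at D1, D30, and D180 (3.07, 1.05, and 3.63%). Of 34 other AP-1 and bZIP factors, 0 were called at D1 and 2 (5.88%) at both D30 and D180, all higher. Among them was Batf, an AP-1 factor of leukocytes, at 1.202 (adjusted p = 0.000155) and 1.54 (adjusted p = 5.13e-07) on the log2 scale. Of 42 other immediate early genes tested, 1 (2.38%) was called higher at D1, 1 at D30, and 3 (7.14%) at D180. In this list 14 genes (33.3%) passed the adjusted p at D1, 6 higher and 8 lower, beside 16.2% of all genes. At D30, 2 (4.76%) passed, beside 3.98%, and at D180 12 (28.6%), beside 16.8%. The D1 count carries the limit that exposure and scan date can hardly be told apart. Nr4a3, a relative of Nr4a1, stood at 2.43 at D1 (adjusted p = 0.000104) and 1.78 at D180 (adjusted p = 0.00239), whereas Nr4a1 itself did not pass. Rgs1, which dampens chemokine receptor signaling in leukocytes, was called at D30 (1.16) and D180 (1.66), and the kinase gene Pim1 at D180 (1.23).

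Among 22 feedback regulators, Spry4, an inhibitor of receptor tyrosine kinase signaling, fell by 1.14 at D1 (adjusted p = 0.00108), and Dusp2, a MAP kinase phosphatase of immune cells, rose by 1.64 at D180 (adjusted p = 3.2e-07). None was called at D30. Of 37 kinases and serum response factors tested, only Map2k6, a kinase upstream of p38, was called, lower by −1.09 at D180 (adjusted p = 0.0013). Of 32 genes known as AP-1 targets, 6 (18.8%), 4 (12.5%), and 10 (31.2%) were called at D1, D30, and D180, all higher, with medians of 0.26, 0.24, and 0.51. Spp1, which encodes osteopontin, rose by 6.99, 5.14, and 7.87, the macrophage elastase gene Mmp12 by 3.36, 3.61, and 4.91, and the monocyte chemoattractant gene Ccl2 by 2.56, 2.80, and 4.54. The gelatinase gene Mmp9 was called only at D180 (2.00, adjusted p = 0.00289). Many of these targets are also expressed by macrophages and neutrophils, some of whose markers were higher. The part of these cells in the changes of the targets was not tested. Of 23 heat shock and handling genes tested, 0 were called at any time in limma. The adjusted p was passed by 2, 1, and 3 of them (8.7, 4.35, and 13.0%) at D1, D30, and D180, beside 16.2, 3.98, and 16.8% of all genes.

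The spread between rats of a group was wide for most of these genes. The median within-group SD of the 10 genes was 0.508 on the log2 scale, against 0.349 for all genes. Since spread depends on signal level, each gene was set beside the 1000 genes nearest to it in level. The SD lay at the 99.3 percentile for Atf3, 98.7 for Egr1, 97.6 for Nr4a1, 92.9 for Fos, 91.5 for Egr2, and 90.5 for Fosb. It lay lower for Jun (87.1), Junb (66.1), Ier3 (63.3), and Fosl1 (53.9). The range between the lowest and the highest rat of a group reached 6.57-fold for Atf3 in D180 control rats, a group with both low and high rats. Replicates 1, 3, and 4, scanned on the same date, lay at 10.07, 11.29, and 10.17. Replicates 2, 5, and 6, scanned on other dates, lay at 11.60, 12.50, and 12.79. Spread between rats and scan date can therefore not be told apart in this group.

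**Figure D3:**
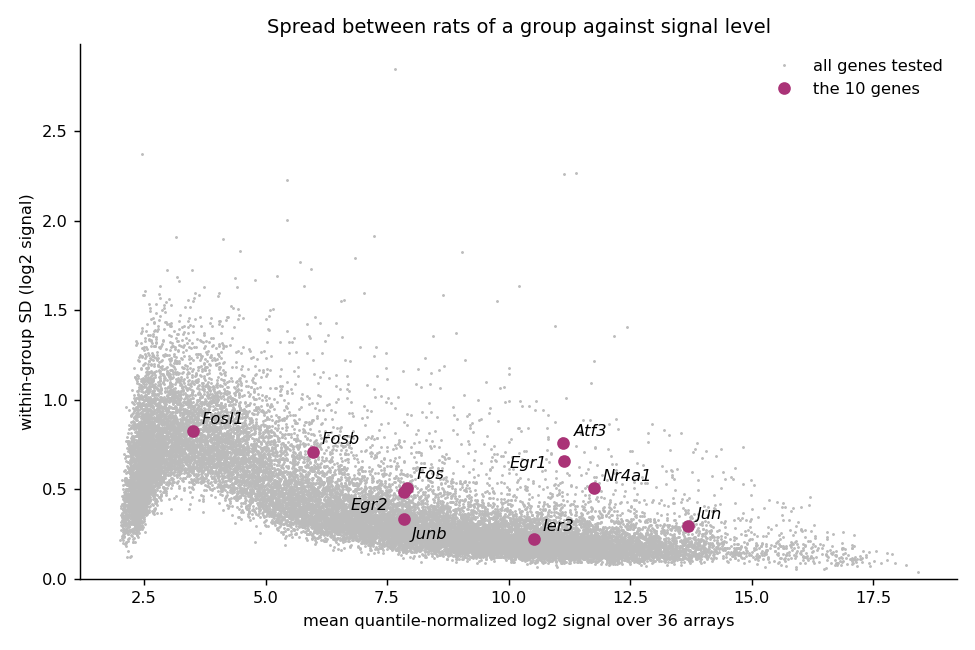
Within-group SD (y axis, log2 signal) against mean log2 signal over 36 arrays (x axis) for all 23940 genes tested (gray) and the 10 genes (purple). Atf3, Egr1, and Nr4a1 lie near the top of the genes at their level, whereas Fosl1 lies in the middle.

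Exposure did not change this spread detectably. In a limma test of the absolute deviations from the group median, 0 of the 10 genes passed the adjusted p at any day, beside 0% of all genes at D1, 0.0125% at D30, and 0.0501% at D180. The smallest unadjusted values of this limma fit over all genes were 0.00355 for Atf3 at D180 (adjusted p = 0.445), 0.0153 for Atf3 at D30, and 0.0115 for Fosl1 at D1 (adjusted p = 1 for both). Atf3 ranged 6.57-fold among control rats and 1.89-fold among exposed rats at D180, and 4.96-fold and 2.70-fold at D30. The D180 control rats divided by scan date, and the part of scan date in these ranges was not tested. Of all genes, 880, 580, and 1592 had an unadjusted p under 0.05 at D1, D30, and D180.

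In some rats the genes were high together. Exposed D30 replicate 3 was the highest of its group for 10 of 10 genes, with Egr1 at 13.31 against 11.49 in the next rat and Fos at 9.49 against 8.12, and its mean deviation from the group over the 10 genes was 1.03. Control D30 replicate 2 was highest for 9 of 10 genes, with a mean deviation of 0.885, and control D1 replicate 2 for 7 of 10, with 0.518. Rats of both arms were thus among the high ones. The array of exposed D30 replicate 3 had 61.5% of probes well above background and that of control D30 replicate 2 had 62.4%, both inside the range of their groups. Why the genes were high in these rats was not tested. Low rats were seen as well, and control D30 replicate 1 was the lowest of its group for 5 of 10 genes, with a mean deviation of −0.598.

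**Figure D4:**
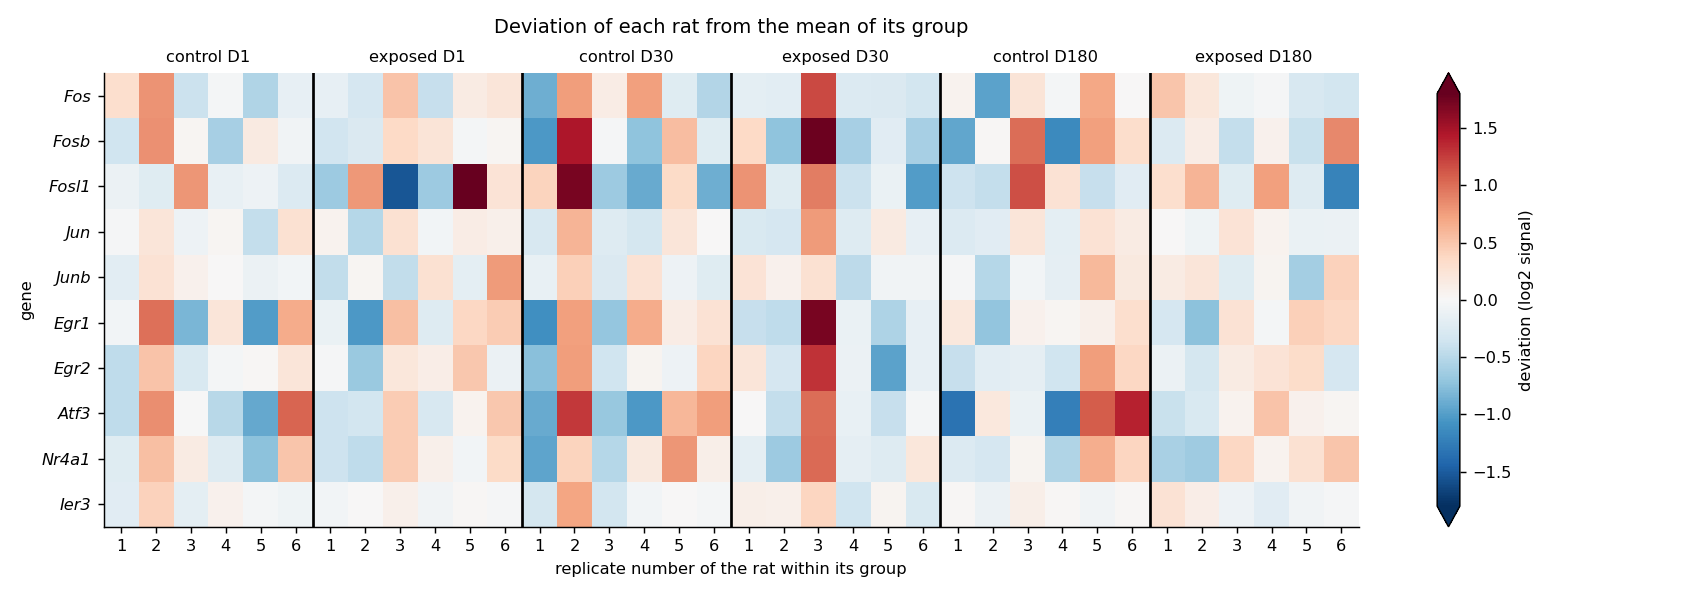
Deviation of each rat (columns, by group and replicate number) from the mean of its group for each gene (rows), on the log2 scale, red above and blue below the mean. Exposed D30 replicate 3 is above its group mean for all 10 genes and control D30 replicate 2 as well.

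Deviations from the group means were compared between the genes over the 36 rats, in 45 pairs. The median Pearson r was 0.481, and 43 of 45 pairs were positive. In a permutation test with arrays shuffled within groups (100000 resamples, two-sided), 29 pairs passed an adjusted p of 0.05 for Pearson's r and 20 of these also for Spearman's rho. Without the 2 rats farthest from the median of the first gene, the median r was 0.364 and 1 pair changed sign. Computed within group and scan date, over the 28 rats that shared both with another rat, the median r was 0.585. Rats share slides and scan dates, and 1 high rat raises many pairs at once.

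The tightest pair was Egr1 and Nr4a1 (r = 0.787, rho = 0.768, permutation p = 1e-05 for both, the smallest these permutations can give, adjusted p = 0.00015), and r was 0.711 without the 2 farthest rats. Within the 6 groups, r for this pair ran from 0.401 to 0.934. Atf3 and Nr4a1 followed (r = 0.753, rho = 0.782, permutation p = 1e-05 for both, adjusted p = 0.00015), with r at 0.777 without the 2 farthest rats. Fosb passed with 8 of 9 partners, Fos, Jun, Egr1, Egr2, and Ier3 with 7 each, Nr4a1 with 6, and Atf3 with 5. Junb passed with 3 partners and Fosl1 with 1, Ier3 (r = 0.401), and Fosl1 was flat against Nr4a1 (r = −0.07) and Egr1 (r = −0.03). Fosl1 was well above background on 9 of 36 arrays, so most of its deviations were near background. Within groups, the median r over the 45 pairs was 0.490 and 0.442 in control and exposed rats at D1, 0.667 and 0.794 at D30, and 0.429 and 0.0124 at D180. Among exposed D180 rats, 23 of 45 pairs were positive, the fewest of the 6 groups, and this difference was not tested.

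**Figure D5:**
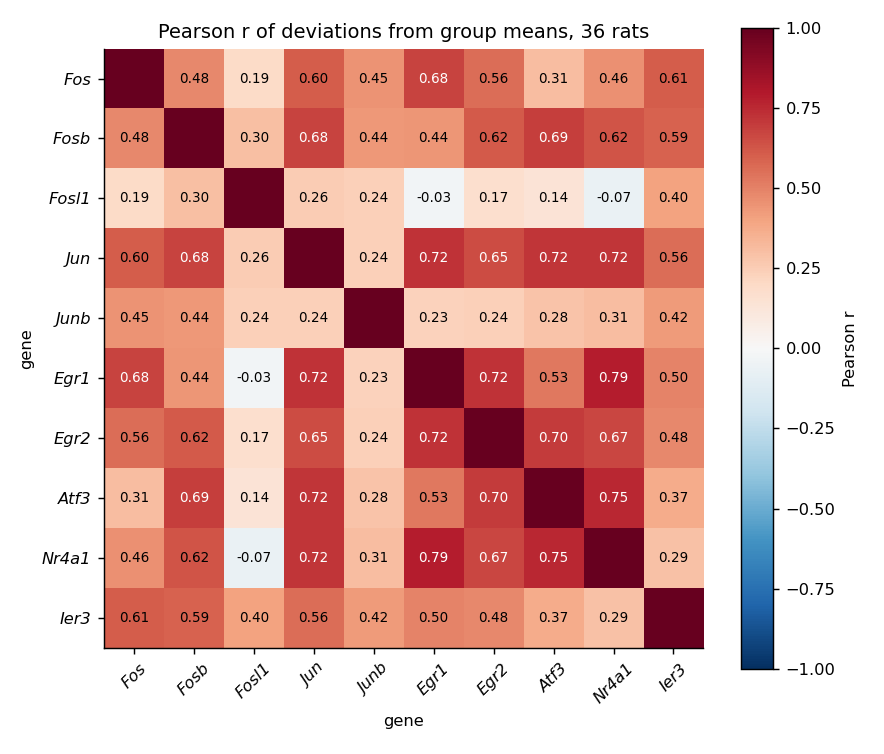
Pearson r between each pair of genes, computed from the deviations of 36 rats from their group means. Values for Jun, Egr1, Egr2, Atf3, and Nr4a1 among each other lie between 0.53 and 0.787, whereas Fosl1 stays at or below 0.401 with every gene.

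Ranked against every other gene without missing values (23733 genes), Fos deviated most like Ccn1, a secreted matrix protein gene that serum response factor and YAP drive (r = 0.72), and Egr1 stood second (r = 0.68). LOC103690998 (0.67), Btg2, an antiproliferative immediate early gene (0.64), Dct (0.63), and LOC102548387 (0.62) followed, although Dct was well above background on 0 of 36 arrays. Ier3 ranked 7, Jun 11, Egr2 24, Fosb 74, Nr4a1 112, and Junb 138, whereas Atf3 ranked 1256 and Fosl1 4103. LOC102557117 (−0.58) and LOC102552193 (−0.56) lay at the other end. These values describe the rats of this study, with no test.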

How the data were processed

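Total RNA of 36 accessory lobes was labeled with Cy3 by the authors and hybridized to 1 Agilent array per rat. The deposited files hold spot intensity, which the authors corrected for background in Feature Extraction 12.0.1.1, and the deposited log2 values of the same arrays are scaled to the 75th percentile and centered per probe (r = 0.99997 with such values computed here). Here, the log2 of the corrected intensity was taken, outlier spots (232 to 596 per array) were left out, and spots of a probe were averaged. Probes above the 95th percentile of 308 negative controls on at least 6 arrays were kept and quantile normalized, and where a gene had several probes the brightest on average stood for it. limma 3.58.1 in R 4.3.3 was fitted to all 36 arrays as 6 group means, with exposed against control at each day and interactions between days, Benjamini–Hochberg adjustment, and thresholds of FC 2 and adjusted p 0.05. The authors corrected for a batch whose variable the methods do not name, and no batch term entered the model here; with scan date or slide as a block, 0 or 1 of the 10 genes were called at D1, against 3. For Fosl1, the brighter mean was also set against the lowest signal well above background on the dimmer arrays, which gives no strict lower bound. Spread was tested with limma on absolute deviations from the group median, and pairs of genes by permutation within groups (Python 3.11.15, numpy 2.4.6). Alternatives changed the intensity column, background correction, normalization, filter, probe summary, model, slide or scan date as a block, and the fold threshold, and left out each rat in turn. The other probe of a gene was added after seeing the data. The limma fit alone was tested on simulated data, independent normal values without slide or scan date effects. All 10 genes, every probe of Jun, Egr1, and Egr2, up to 4 called genes with the largest change per pathway list, and the genes most and least like Fos were named. A called gene of the list of other AP-1 and bZIP factors is not reported here. The genes and lists were chosen with earlier results of these data known. The labels do not say more than that each rat is a separate sample. Promoters of Fos, Jun, Atf3, and Ier3 were not analysed here.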

Additional observations from a re-analysis of the deposited data

Results flagged for a closer look

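Of 60 sets of 6 rats (10 genes in 6 groups), 6 held a rat far from the next rat. Its gap took up more of the range of its group than the 95% critical value of Dixon's test allows. In normal values, chance alone gives this in about 1 in 20 sets. The 10 genes were measured in the same rats, so the sets are not independent and the count cannot be read against this rate. In exposed D30 rats, replicate 3 was the highest rat in 3 of the 6 flagged sets, with a gap of 0.898 of the range for Fos, 0.806 for Egr1, and 0.694 for Atf3. In control D30 rats, Ier3 was high in replicate 2 (11.07 against 10.36 in the next rat, 0.686 of the range), and in control D1 rats Fosl1 was high in replicate 3 (3.06 against 2.17, 0.859), where it was not well above background. In control D180 rats, Egr1 was low in replicate 2 (10.96 against 11.71, 0.743).

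A difference of the exposure effect between days passed the adjusted p (limma interaction) for 2 genes. Of all genes, 2.18% passed between D30 and D1 and 4.55% between D180 and D1. The change of Junb at D30 minus that at D1 was −0.972 on the log2 scale, and the change of Egr2 at D180 minus that at D1 was 1.38, for the probe used. The other Egr2 probe went the other way, with 0.53 at D1 and 0.14 at D180. Both differences rest on D1, where exposure and scan date can hardly be told apart, and neither passed with a block on scan date or slide. With each of the 36 rats left out in turn, that of Junb was lost 22 times and that of Egr2 7 times.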

How the results depend on the processing

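At D1, the 3 called genes became 1 with the uncorrected median intensity, normexp, array weights, or scan date or slide as a random block, and 0 with scan date or slide as a fixed block. The 4 genes past the adjusted p became 0 with either fixed block, 1 with scan date and 2 with slide as a random block. At D180, the 1 called gene became 0 with normexp, with slide as a fixed block, and with the stricter filter, which asks for 6 of 6 arrays of some group well above background and dropped Fosl1, and 2 with array weights, scan date as a fixed or random block, or an FC of 1.5. The 2 genes past the adjusted p became 1 with that filter or the median of a gene's probes, and 0 with slide as a fixed block. The difference of Junb between D30 and D1 was lost, leaving 0 genes, with normexp, 75th percentile scaling, the deposited log2 values, the median of the probes, and each block on scan date or slide. That of Egr2 between D180 and D1 was lost with the median of the probes and the same blocks. Beyond the filter, the missing Fosl1 and the probes, the cause was not tested. No alternative reversed a called change. With 1 rat left out, 1 to 3 genes were called at D1 (1 without exposed replicate 4), 1 to 2 at D180 (2 without control replicate 5 or 6 or exposed replicate 2 or 6), 0 to 1 genes differed between D30 and D1, and 0 to 2 between D180 and D1. The median within-group SD was 0.381 to 0.572 and the median r between genes 0.397 to 0.654 over all alternatives.

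Replicate numbers did not pair the rats (r of same-numbered rats −0.131 to 0.218 over all genes, 18 pairs). With the number as a replicate block, the called genes numbered 2, 0, and 1 at D1, D30, and D180, those past the adjusted p 3, 0, and 2, and 0 differed between days.

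Over all genes, 736, 252, and 869 were called at D1, D30, and D180. The counts were 270, 128, and 429 with the uncorrected median intensity, 214, 102, and 326 with normexp, and 1842, 614, and 2307 at an FC of 1.5. At D1 they were 176 and 199 with scan date and slide as fixed blocks and 404 and 483 as random blocks, at D30 504 with array weights, and at D180 482 with slide as a fixed block. The size of the Fosl1 change, near background, depended on the signal used: at D180 it was 2.87 on the log2 scale, 1.08 with the uncorrected median intensity and 0.69 with normexp.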
